A study of Mus musculus with 8 samples.

Results

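H19, a long noncoding RNA of the fetus and placenta, and 9 imprinted genes that act on growth were followed through tumors of the mouse mammary carcinoma line 4T1. The 10 genes are 10 of 25006 gene identifiers that were counted in each of 8 RNA-seq libraries. The list was built around H19, which had been picked out from its levels in these same libraries, so its values are given as a description and without a test. Igf2, Igf2r, Peg3, Mest, Dlk1, Meg3, Plagl1, Cdkn1c and Grb10 were added by name as imprinted growth genes. Each of the 10 matched a symbol and passed filtering on low counts.

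The study compared tumors with and without CD95, the death receptor encoded by Fas and did so in 2 hosts. NSG mice are immunodeficient, without mature lymphocytes, and Balb/c mice, the strain from which 4T1 arose, are immunocompetent. There were 4 groups of 2 libraries. NSG wild type and Balb/c wild type each held 1 library of the parental line and 1 of a line that stably expresses vCas9. NSG knockout and Balb/c knockout each held 1 library of CRISPR/Cas9 clone 54 and 1 of clone 69. Every tumor grew from cells placed in the fat pad and was taken within 20 days. The ages of the mice, and whether a library held 1 tumor or several, are not given in the sources used here. The replicates of a group are different lines, so the spread within a group includes differences between lines, and p-values measure only that spread. Only the knockout lines are described as clones, and growth from a single cell cannot be told apart from loss of CD95.

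Imprinted genes are transcribed mainly from the allele of 1 parent. DNA methylation at an imprinting control region marks the allele of 1 parent, which may be the transcribed or the silent one. The mark is kept through cell division by factors such as ZFP57, TRIM28 and DNMT1. H19 and Igf2 are neighbours on chromosome 7: CTCF binding at the unmethylated maternal control region goes with H19 transcription, and methylation of the paternal one goes with transcription of Igf2, a fetal growth factor. Many of these genes are highly expressed in the fetus and placenta and decline after birth, and several are re-expressed in tumors. Genes read from the maternal allele in most mouse tissues (here H19, Igf2r, Meg3, Cdkn1c and Grb10) tend to restrain growth, and genes read from the paternal allele (Igf2, Peg3, Mest, Dlk1 and Plagl1) are a mix of growth promoters and regulators. A count of reads does not show which allele they came from.

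H19 lies at chr7:142575529-142578143 on the minus strand of GRCm38 and also carries the hairpin of miR-675. The hairpin is inside an H19 exon, and its mature products are shown because they are the only small RNA encoded within H19 itself. They are printed from RefSeq on GRCm38.p6, with the seed, bases 2 to 8, in capitals.
miR-675-5p (chr7:142577112-142577133, minus strand): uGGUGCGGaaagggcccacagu
miR-675-3p (chr7:142577078-142577099, minus strand): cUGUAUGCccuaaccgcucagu
The seeds GGUGCGG and UGUAUGC are not shared by any other mature product of the 13 microRNA loci looked up inside or beside these genes. The Mir675 locus had 0 counts in all 8 libraries, against 144 to 8025 counts for H19, and how the authors treated reads that overlap both is not stated. Of the 13 loci, 8 had 0 counts in every library and the largest count in any library was 8. The sequencing was not of small RNA, so these counts say nothing of mature microRNA.

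RefSeq promoter windows, 250 bases before to 50 after an annotated start, were found for 8 of the 10 genes, with 15 windows in all; H19 and Cdkn1c are named only. Both strands were searched for TGCCGC, the hexamer bound by ZFP57 when methylated, for GGNGGCAG, a core of the CTCF sites in the H19 control region, and for GCCATNTT, a YY1 core. Of all 32851 promoters, 11.6% held TGCCGC, 12.6% held GGNGGCAG and 6.05% held GCCATNTT. Among the 8 genes, 5 had TGCCGC in at least 1 window (Igf2, Mest, Meg3, Plagl1 and Grb10), 2 had GGNGGCAG (Igf2 and Grb10) and none had GCCATNTT. Counted over genes, 13.1% of 27025 had TGCCGC, and a gene with several windows has more chances of a match. Windows are shown for the 4 genes that held TGCCGC and that changed in at least 1 comparison below, with the matches in capitals, each read 5′ to 3′ on the strand of the gene.
Meg3 start 1 (chr12:109540746-109541045, plus strand, GRCm38.p6): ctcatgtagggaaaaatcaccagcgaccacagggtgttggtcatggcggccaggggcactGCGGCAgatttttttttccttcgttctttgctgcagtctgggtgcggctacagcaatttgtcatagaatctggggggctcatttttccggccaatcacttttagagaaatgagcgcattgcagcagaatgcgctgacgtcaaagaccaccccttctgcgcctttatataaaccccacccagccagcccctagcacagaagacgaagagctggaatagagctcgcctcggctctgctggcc
Mest start 2 (chr6:30737800-30738099, plus strand, GRCm38.p6): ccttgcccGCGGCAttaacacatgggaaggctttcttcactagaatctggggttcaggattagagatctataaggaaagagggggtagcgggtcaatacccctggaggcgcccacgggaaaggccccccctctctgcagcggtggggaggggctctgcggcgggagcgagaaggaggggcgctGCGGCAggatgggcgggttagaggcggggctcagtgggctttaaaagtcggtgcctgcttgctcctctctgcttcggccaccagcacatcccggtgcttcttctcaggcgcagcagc
Plagl1 (chr10:13090582-13090881, plus strand, GRCm38.p6): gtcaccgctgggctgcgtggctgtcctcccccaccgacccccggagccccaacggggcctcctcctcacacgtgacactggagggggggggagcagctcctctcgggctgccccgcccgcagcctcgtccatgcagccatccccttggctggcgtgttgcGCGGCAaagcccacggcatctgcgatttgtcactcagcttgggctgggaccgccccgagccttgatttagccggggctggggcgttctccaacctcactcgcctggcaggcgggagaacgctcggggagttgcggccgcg
Grb10 start 1 (chr11:12037371-12037670, minus strand, GRCm38.p6): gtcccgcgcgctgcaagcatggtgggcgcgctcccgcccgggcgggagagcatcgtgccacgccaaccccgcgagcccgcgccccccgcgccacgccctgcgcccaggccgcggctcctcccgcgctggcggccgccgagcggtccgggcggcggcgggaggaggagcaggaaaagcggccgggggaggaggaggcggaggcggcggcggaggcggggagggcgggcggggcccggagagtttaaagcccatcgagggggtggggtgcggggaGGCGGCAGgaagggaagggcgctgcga
Each match is the reverse complement of TGCCGC. It spans -190 to -185 from the start site in Meg3, -90 to -85 in Plagl1 and 24 to 29 in Grb10, and Mest has it at -242 to -237 and again at -67 to -62. In Grb10 it lies inside a GGNGGCAG match at 23 to 30, so that the capitals there mark both. GC content was 53.7% in the Meg3 window, 62.7% in Mest, 70.7% in Plagl1 and 80% in Grb10, against a median of 52.7% over all promoters. Igf2r and Peg3, which also changed, had no match in their windows. These are matches of letters, not measured binding or methylation.

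Libraries held 8.68 M to 19.7 M counts (M for mega), and levels below are in CPM, the depth-scaled count unit usual in RNA-seq, worked out here with TMM scaling of library totals. A library at 3 counts would read 0.159 to 0.321 CPM. Fas, the targeted gene, read 33.9 and 22.6 CPM in NSG wild type, 29.5 and 12.9 in NSG knockout, 51.6 and 46.9 in Balb/c wild type and 27.1 and 33.7 in Balb/c knockout, and a count over the whole gene does not read the edit. Krt8, Krt18 and Epcam of the carcinoma were read in every library, and the summed level of 8 epithelial markers was 718 to 3890 CPM. Tests were edgeR's quasi-likelihood tests over 15310 genes with Benjamini-Hochberg adjustment, and a gene is said to have changed only at an adjusted p under 0.05. Fold changes are on the log2 scale with their SE, and intervals are 95%.

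H19 was far higher in NSG than in Balb/c tumors, and within NSG it was higher in the wild-type than in the knockout libraries. In NSG wild type it read 556 CPM in the parental tumor and 166 CPM in the vCas9 tumor. In NSG knockout it read 42.3 CPM in clone 54 and 117 CPM in clone 69. In Balb/c wild type it read 22.9 CPM in the parental tumor and 32.7 CPM in the vCas9 tumor, and in Balb/c knockout 20.8 CPM in clone 54 and 10.5 CPM in clone 69. The 4 groups therefore did not overlap, and the order of their means was NSG wild type (361 ± 276 CPM, SD, n = 2), NSG knockout (79.5 ± 52.7), then Balb/c wild type (27.8 ± 6.91), with Balb/c knockout last (15.6 ± 7.27). The means of NSG knockout and Balb/c wild type lay closer together than the SD of NSG knockout, and the highest and lowest libraries were 52.9-fold apart.

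**Figure D1:**
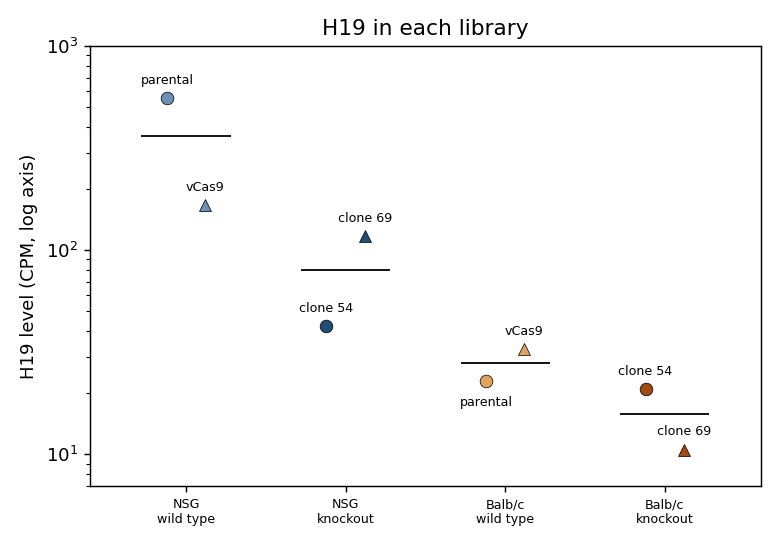
H19 level in each library on a log axis in CPM, by group; circles are replicate 1 (parental line or clone 54), triangles replicate 2 (vCas9 line or clone 69), and bars the mean of 2. All 4 NSG libraries, from 42.3 to 556 CPM, lie above the 4 Balb/c libraries, from 10.5 to 32.7 CPM.

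Every line had more H19 in NSG than in Balb/c mice, but by very different amounts. The ratio of NSG to Balb/c was 24.2 for the parental line and 5.06 for the vCas9 line. It was 2.03 for clone 54 and 11.1 for clone 69. Lines of one genotype did not keep their order between hosts: in NSG the parental tumor had 3.36 times the level of the vCas9 tumor, while in Balb/c the vCas9 tumor had 1.43 times the level of the parental one. Clone 69 had 2.76 times the level of clone 54 in NSG, and clone 54 had 1.98 times that of clone 69 in Balb/c. The fitted log2 fold changes, given with no test, were -3.70 for Balb/c against NSG in wild-type tumors and -2.34 in knockout tumors. For knockout against wild type they were -2.18 in NSG and -0.82 in Balb/c. Single libraries weighed on these values. The knockout value in NSG was -1.06 without the NSG parental library, -2.81 without NSG vCas9, -1.63 without NSG clone 54 and -3.1 without NSG clone 69. In Balb/c it ranged from -0.415 without clone 69 to -1.51 without clone 54, with -1.05 without the parental and -0.62 without the vCas9 library. The host value was -2.58 without the NSG parental library and -4.33 without NSG vCas9 in wild-type tumors, and in knockout tumors it was -1.43 without NSG clone 69 and -2.94 without Balb/c clone 54.

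H19 is made by fetal mesenchyme, by differentiating myoblasts and by some carcinomas, so markers of other cells are set beside it. The summed level of 10 fibroblast markers was 18300 to 35000 CPM in NSG and 4410 to 13600 CPM in Balb/c libraries, so the sum too was higher in all NSG libraries. Most of the sum was Col3a1, Col1a2 and Col1a1. These collagens, Dcn, Pdgfra and Pdgfrb were each higher in every NSG library, while Lum, Fap, Postn and Thy1 overlapped between hosts. Within NSG the fibroblast sum was higher in knockout (30600 to 35000 CPM) than in wild type (18300 to 26800 CPM), the opposite order to H19. Epithelial markers of the carcinoma also had the opposite order within NSG, at 1130 to 1450 CPM in wild type and 2180 to 3160 CPM in knockout. Macrophage markers had the order of H19 there, at 3430 to 3540 CPM in wild type and 1860 to 2370 CPM in knockout. The 6 proliferation markers summed to 627 to 1020 CPM in NSG and 406 to 549 CPM in Balb/c. Markers of myogenic progenitors summed to at most 1.25 CPM in any library and none passed the filter, while 10 skeletal muscle markers gave 9.51 to 58.3 CPM with both hosts overlapping. The 5 T cell markers summed to 3.53 to 7.95 CPM in NSG and 214 to 235 CPM in Balb/c. No listed marker was at 0 in all libraries. The part of cell makeup in the H19 levels was not tested, and in bulk tumor RNA fewer cells of a type and less RNA per cell cannot be told apart, for H19 as for every gene below.

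The genes whose profile over the 8 libraries was nearest to that of H19 were found by the root mean square difference of log2 CPM (with 0.5 CPM added), each centred on its own mean. They were Syt13 (0.381), Nr2f1 (0.426), Mgp (0.494), Dusp9 (0.591) and Serpine2 (0.6), against a median of 1.78 over all tested genes. Syt13, a synaptotagmin, read 32.5 and 16 CPM in NSG wild type, 2.14 and 7.16 in NSG knockout, and 0.584 to 1.87 in Balb/c. Mgp, the matrix Gla protein that inhibits calcification, read 60.7, 28, 9.84 and 24.8 CPM in the NSG libraries in the same order, and 2.99 to 8.80 CPM in Balb/c. Like H19, both were highest in the NSG parental tumor and, within NSG knockout, higher in clone 69. These are the nearest of all tested genes by construction, so the distances are a description of 8 libraries that share their depth and scaling.

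Per kilobase of exon, H19 ranked first of the 10 genes in both NSG wild-type libraries, at 226 and 67.3 CPM per kb, and second in the other 6, where Igf2r was first. The median over libraries was 32.7 CPM per kb for Igf2r and 15.2 for H19, followed by 7.82 for Grb10, 5.25 for Meg3, 3.03 for Cdkn1c, 2.81 for Plagl1, 1.93 for Mest and 1.03 for Peg3. Igf2 and Dlk1 were last, at 0.262 and 0.152 CPM per kb. Grb10 came next after Igf2r and H19 in every library, Meg3, Cdkn1c, Plagl1, Mest and Peg3 changed places among themselves, and Dlk1 was above Igf2 in both Balb/c wild-type libraries.

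Igf2, the ligand next to H19, was barely read. It had 10 to 37 counts in a library. Its level was 1.18 and 1.82 CPM in NSG wild type, 2.68 and 0.994 in NSG knockout, 1.02 and 0.970 in Balb/c wild type and 1.85 and 2.70 in Balb/c knockout. The Balb/c wild-type libraries lay below both NSG wild-type libraries, which lay below both Balb/c knockout libraries, and NSG knockout overlapped every other group. For CD95 loss in Balb/c the log2 fold change was 1.18 ± 0.55 (adjusted p = 0.188, interval -0.10 to 2.46). For Balb/c against NSG it was -0.58 ± 0.57 in wild-type tumors (adjusted p = 0.45), where H19 was -3.70, and 0.31 ± 0.54 in knockout tumors (adjusted p = 0.698). For CD95 loss in NSG it was 0.29 ± 0.56 (adjusted p = 0.836). H19 counts exceeded Igf2 counts in every library, by 472 times in the NSG parental tumor and 3.89 times in Balb/c clone 69. The nearest profiles to that of Igf2 were Fabp7 (0.19), Pgap3 (0.194), Mamld1 (0.213), Ttc38 (0.221) and Nupr1 (0.225), with a median of 0.613 over all genes. Mir483, inside Igf2, had 0 counts throughout.

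Igf2r, the receptor that takes up IGF2 for degradation in lysosomes and also carries lysosomal enzymes, was lower in Balb/c tumors of both genotypes. It read 525 and 371 CPM in NSG wild type and 427 and 522 CPM in NSG knockout. In Balb/c it read 225 and 238 CPM in wild type and 164 and 224 CPM in knockout. No Balb/c library reached the lowest NSG one. Igf2r fell by 0.95 on the log2 scale in wild-type tumors (SE 0.25, adjusted p = 0.0247) and fell by 1.29 in knockout tumors (SE 0.25, adjusted p = 0.0072), in 2 of 2 lines each time. With the line as a block the wild-type value was -0.93 with an adjusted p of 0.0618. Leaving out 1 library gave adjusted p-values of 0.153 without NSG parental, 0.0497 without NSG vCas9, 0.13 without Balb/c parental and 0.122 without Balb/c vCas9. The knockout call was kept in each of those fits, at adjusted p-values from 0.00671 to 0.0412. Loss of CD95 gave 0.08 ± 0.24 in NSG (interval -0.48 to 0.65) and -0.26 ± 0.25 in Balb/c (interval -0.82 to 0.31). Reads of Igf2r and its antisense neighbour Airn cannot be told apart if strand was not used, which is not stated; Airn read at most 17.0 CPM.

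Grb10, an adaptor that restrains insulin and IGF1 receptor signaling, and Peg3, a zinc finger protein linked to growth and maternal behaviour, were both lower in Balb/c than in NSG tumors of the knockout lines. Grb10 read 60.9 and 104 CPM in NSG wild type, 144 and 120 in NSG knockout, 77.0 and 56.7 in Balb/c wild type and 65.1 and 36.3 in Balb/c knockout. It fell by 1.38 on the log2 scale in knockout tumors (SE 0.35, adjusted p = 0.0201), with no overlap. In wild-type tumors the hosts overlapped, at -0.31 ± 0.34 (adjusted p = 0.508). Peg3 read 14.0 and 22.2 CPM in NSG wild type, 28.6 and 36.2 in NSG knockout, 5.44 and 10.5 in Balb/c wild type and 13.5 and 6.49 in Balb/c knockout. Peg3 fell by 1.69 in knockout tumors (SE 0.44, adjusted p = 0.0223) and gave -1.17 ± 0.44 in wild-type tumors (adjusted p = 0.0746), lower in 2 of 2 lines in both. The Peg3 value in wild-type tumors passed by edgeR with no filter on low counts (-1.09, adjusted p = 0.0483). For CD95 loss Grb10 gave 0.68 ± 0.34 in NSG (adjusted p = 0.411) and -0.40 ± 0.34 in Balb/c (adjusted p = 0.454), and Peg3 gave 0.84 ± 0.43 (adjusted p = 0.412) and 0.32 ± 0.44 (adjusted p = 0.638). Each host call depended on single libraries. For Grb10 the adjusted p was 0.0793 without NSG clone 54, 0.0554 without NSG clone 69 and 0.062 without Balb/c clone 69. For Peg3 it was 0.105 without NSG clone 69 and 0.0646 without Balb/c clone 69.

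Mest, an enzyme of the alpha/beta hydrolase fold expressed in fetal mesoderm, was lowest in Balb/c wild type. It read 7.96 and 10.6 CPM in NSG wild type, 7.28 and 18.0 in NSG knockout, 2.89 and 2.84 in Balb/c wild type and 10.2 and 5.76 in Balb/c knockout. The fall between hosts in wild-type tumors was 1.69 on the log2 scale (SE 0.48, adjusted p = 0.0324). It had an adjusted p of 0.094 with the line as a block, and between 0.091 and 0.148 when any 1 of the 4 libraries was left out. Between hosts in knockout tumors the value was -0.66 ± 0.45 (adjusted p = 0.297), and for CD95 loss in NSG it was 0.45 ± 0.45 (adjusted p = 0.671). In Balb/c tumors the knockout value was 1.48 ± 0.48, with an adjusted p of 0.0919 and higher in 2 of 2 lines; without Balb/c clone 69 the value was 1.83 and the adjusted p was 0.0363. Copg2 is read from the opposite strand of the Mest locus and read 29.2 to 49.45 CPM. Mest counts are uncertain if strand was not used, which is not stated.

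Meg3, a maternally expressed long noncoding RNA of the Dlk1-Dio3 domain on chromosome 12, was low in both Balb/c knockout libraries. It read 71.5 and 111 CPM in NSG wild type, 117 and 97.6 in NSG knockout and 106 and 92.2 in Balb/c wild type. In Balb/c knockout it read 18.5 CPM in clone 54 and 21.6 CPM in clone 69. The other 6 libraries overlapped between groups, and both Balb/c knockout libraries lay below all of them. Meg3 fell by 2.31 on the log2 scale with CD95 loss in Balb/c (SE 0.24, adjusted p = 0.045), a 4.95-fold lower level, and the value in NSG was 0.24 ± 0.23 (adjusted p = 0.659, interval -0.30 to 0.77). It fell by 2.42 between hosts in knockout tumors (SE 0.25, adjusted p = 0.000635) and gave 0.12 ± 0.23 in wild-type tumors (adjusted p = 0.701). The difference between the knockout effects in the hosts was -2.55 ± 0.33 with an adjusted p of 0.0734 by edgeR, so it did not pass. By DESeq2 it was among the members that passed.

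The Meg3 call for CD95 loss in Balb/c did not hold in every fit. It was kept by DESeq2 (adjusted p = 5.98e-14). By edgeR it was kept with no filter on low counts (0.00023), RLE size factors (0.0329) and total-count scaling (0.036). In a fit of only the 4 Balb/c libraries the value was -2.33 and the adjusted p was 0.182. Without Balb/c parental the value was -2.2 with an adjusted p of 0.282, and without Balb/c clone 54 it was -2.30 with 0.0879. Without Balb/c vCas9 or clone 69 the call was kept, at 0.0474 and 0.00493. The host call in knockout tumors was kept under each of these kinds of fit.

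The neighbours of Meg3 in the same domain are set beside it; they were listed as imprinted genes with earlier results known. Mirg, a noncoding host of microRNAs on the maternal allele, read 12.1 and 20.2 CPM in NSG wild type, 16.05 and 10.2 in NSG knockout, 14.6 and 13.2 in Balb/c wild type and 2.86 and 2.48 in Balb/c knockout. Rtl1, a retrotransposon-derived gene of the paternal allele, read 5.055 and 11.8 CPM, 15.2 and 9.945, 11.55 and 14.8, and 2.80 and 4.38 in the same order. For both, Balb/c knockout was again the lowest group with no overlap. Between hosts in knockout tumors Mirg fell by 2.29 (SE 0.35, adjusted p = 0.00278) and Rtl1 by 1.81 (SE 0.45, adjusted p = 0.0199). With CD95 loss in Balb/c the values were -2.37 ± 0.35 for Mirg (adjusted p = 0.0549) and -1.89 ± 0.45 for Rtl1 (adjusted p = 0.06), neither past the threshold. Rtl1 has antisense transcripts, so its counts are uncertain without strand. Dio3, the thyroid hormone deiodinase at the other end of the domain, did not follow that order, with 3.33 CPM in Balb/c clone 54 and 0.219 CPM in clone 69.

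Dlk1, a paternally expressed transmembrane inhibitor of adipocyte differentiation at the near end of the domain, was close to the limit of these libraries, at 2 to 23 counts. It read 0.139 and 0.828 CPM in NSG wild type, 1.498 and 0.895 in NSG knockout, 1.19 and 1.59 in Balb/c wild type and 0.317 and 0.802 in Balb/c knockout. Knockout libraries lay above wild type in NSG, at 1.33 ± 0.83 (adjusted p = 0.492), and below in Balb/c, at -1.35 ± 0.77 (adjusted p = 0.265). Between hosts it gave 1.56 ± 0.80 in wild-type (adjusted p = 0.164) and -1.12 ± 0.80 in knockout tumors (adjusted p = 0.317). The difference of the effects, -2.68 ± 1.129, had an adjusted p of 0.214. The NSG parental library, at 2 counts, is under the floor of 3, and the NSG value was 0.52 without it and 3.02 without NSG vCas9. The Balb/c value was -2.1 without clone 69 and -0.895 without clone 54. The difference lay between -4.35 without NSG vCas9 and -1.86 without NSG parental. The nearest profiles were those of Ddi1 (0.226), Slc2a12 (0.231), Gm4275 (0.244), Grip2 (0.247) and Mpzl3 (0.25), against a median of 0.734.

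**Figure D2:**
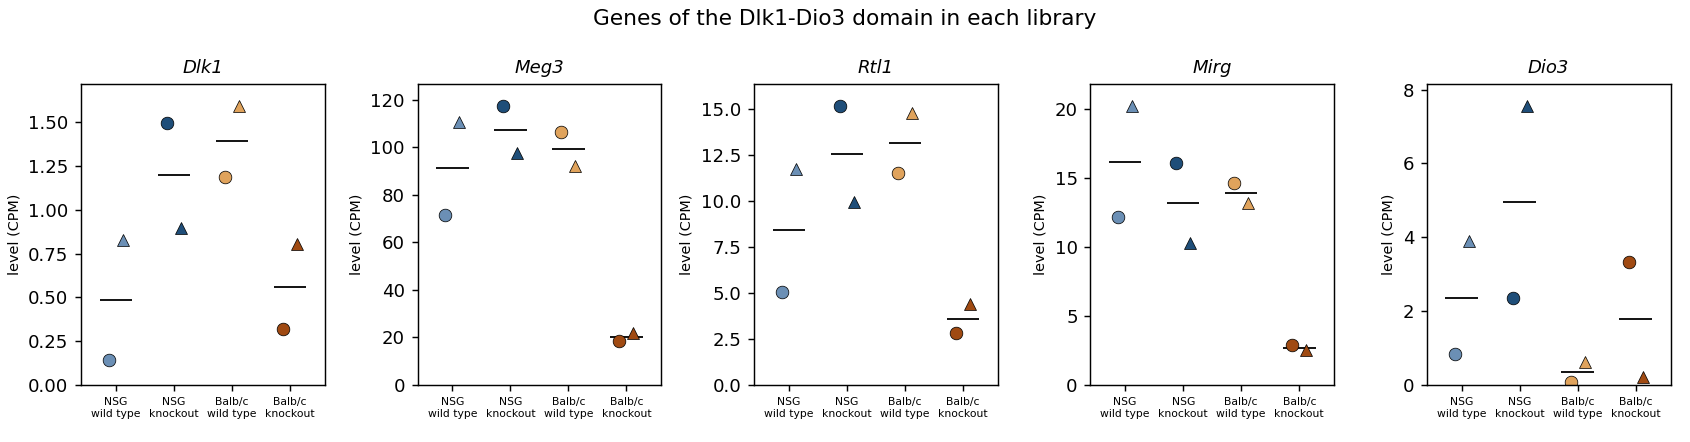
Levels in CPM of 5 genes of the Dlk1-Dio3 domain in each library, each panel from 0 on its own axis; circles are replicate 1 (parental line or clone 54), triangles replicate 2 (vCas9 line or clone 69), and bars the mean of 2. Meg3, Rtl1 and Mirg are lowest in both Balb/c knockout libraries, where Meg3 reads 18.5 and 21.6 CPM, and Dlk1 stays under 2 CPM in every library.

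Plagl1, a zinc finger transcription factor that slows the cell cycle, was highest in Balb/c wild type. It read 14.1 and 25.3 CPM in NSG wild type, 34.99 and 18.6 in NSG knockout, 45.3 and 43.6 in Balb/c wild type and 12.3 and 15.5 in Balb/c knockout. Plagl1 rose by 1.18 on the log2 scale in Balb/c against NSG wild-type tumors (SE 0.36, adjusted p = 0.0393), in 2 of 2 lines. In knockout tumors the value was -0.95 ± 0.36 (adjusted p = 0.0792), lower in 2 of 2 lines. It passed with total-count scaling (0.0376), with no filter on low counts (0.0379) and without NSG clone 69 (-1.34, adjusted p = 0.043), and RLE size factors, DESeq2, a fit of only those libraries, the block by line and leaving out any other library gave 0.0521 to 0.428, with a value of -0.43 without NSG clone 54. The difference of the host effects was -2.13 ± 0.50 with an adjusted p of 0.0995. That difference passed by DESeq2 (0.00344) and by edgeR with no filter (0.0138), and had 0.256 with the line as a block. For CD95 loss in NSG Plagl1 gave 0.45 ± 0.36 (adjusted p = 0.588). The rise had an adjusted p of 0.0813 with the line as a block, and between 0.0566 and 0.205 when any 1 of the 4 libraries was left out. With CD95 loss in Balb/c the value was -1.68 ± 0.36 (adjusted p = 0.0569), and without Balb/c clone 69 it was -1.85. Plagl1 passed there by DESeq2 (-1.78, adjusted p = 0.000367) and by edgeR with no filter on low counts (-1.75, 0.00563). An edgeR fit of only the Balb/c libraries gave -1.7 with an adjusted p of 0.182.

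Cdkn1c, the cyclin-dependent kinase inhibitor p57, passed in no comparison. It read 3.95 and 6.30 CPM in NSG wild type, 11.02 and 6.07 in NSG knockout, 9.003 and 5.41 in Balb/c wild type and 7.51 and 5.54 in Balb/c knockout, and all groups overlapped. Its log2 fold changes for CD95 loss and for the host lay between -0.38 ± 0.42 (host, knockout tumors; interval -1.34 to 0.58) and 0.74 ± 0.42 (knockout in NSG; interval -0.24 to 1.72), so changes of over 1 on the log2 scale are inside these intervals. The difference of the knockout effect between hosts was -0.87 ± 0.59 (adjusted p = 0.409, interval -2.24 to 0.49).

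**Figure D3:**
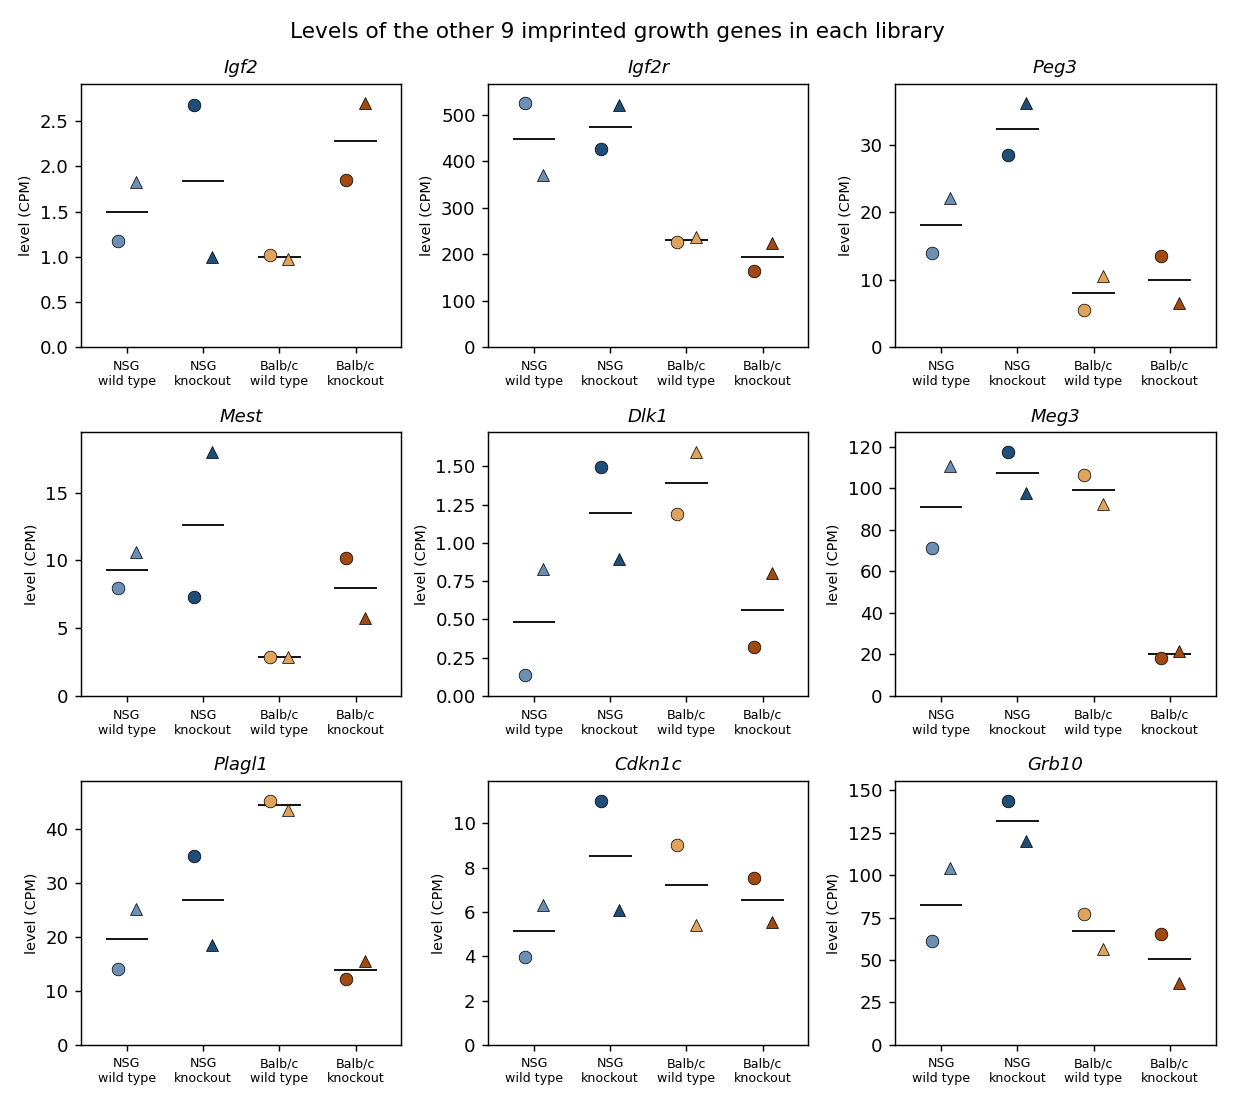
Levels in CPM of the 9 genes other than H19 in each library, each panel from 0 on its own axis; circles are replicate 1 (parental line or clone 54), triangles replicate 2 (vCas9 line or clone 69), and bars the mean of 2. Igf2r separates the hosts, with 371 to 525 CPM in NSG and 164 to 238 CPM in Balb/c, Meg3 is low in Balb/c knockout, and Cdkn1c overlaps throughout.

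Counted over the 9 genes, CD95 loss in NSG tumors changed none by edgeR, where 0.0131% of the 15310 genes passed. None had an unadjusted p under 0.05, and DESeq2 called none either. All 9 log2 fold changes were positive, with a median of 0.45 against 0.013 over all genes and a smallest adjusted p of 0.411, while H19 was at -2.18. Leaving out a single NSG library turned the sign of Igf2, Igf2r, Mest, Meg3 or Plagl1, depending on the library. In that comparison edgeR called 0 markers, and the medians of the fibroblast, epithelial and adipocyte marker lists were positive too, at 0.58, 1.34 and 1.26, with 1 of 10, 3 of 8 and 4 of 8 at an unadjusted p under 0.05 against 14% of all genes. Skeletal muscle, neutrophil and endothelial medians were 0.714, 0.509 and 0.451. Macrophage, T cell, proliferation and B cell medians were negative, at -0.83, -0.543, -0.204 and -0.0577. Epithelial markers summed to 1130 to 1450 CPM in NSG wild type and 2180 to 3160 CPM in NSG knockout. The part of these markers was not tested. In Balb/c tumors 1 of 9 fell, Meg3, where 0.176% of all genes passed, and 3 of 9 had an unadjusted p under 0.05, near the 30.9% of all genes that did. DESeq2 called 3 there, against 2208 of the 15310 genes. The edgeR count changed with some single Balb/c libraries left out, as did the count over all genes. The median was -0.26 against 0.058 over all genes. For the difference of the knockout effect between hosts edgeR called 0 of 9, and 0% of all genes passed, with 3452 genes at an unadjusted p under 0.05 and 974 called by DESeq2. In that test 3 of 9 had an unadjusted p under 0.05, against 22.5% of all genes. DESeq2 called 2, against 974 of the 15310 genes. Left without Balb/c clone 69, the edgeR values of the difference were -2.65 for Meg3 and -2.29 for Plagl1.

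Between hosts, 3 of 9 changed in wild-type tumors (Igf2r and Mest lower, Plagl1 higher), where 31.5% of all genes passed, and 4 of 9 fell in knockout tumors (Igf2r, Peg3, Meg3 and Grb10), where 31.1% passed. These shares are near the background of the host comparisons, so the counts are not a result about these genes. The medians were -0.31 in wild-type and -1.12 in knockout tumors, against -0.079 and 0.022 over all genes. With the line as a block 0 of 9 passed in wild-type and 4 of 9 in knockout tumors, where 2073 and 2878 of the 15310 genes passed. In wild-type tumors at most 1 of 9 passed with a library left out, namely Igf2r without NSG vCas9. In knockout tumors 3 passed without NSG clone 54 or clone 69, 2 without Balb/c clone 69, and 4 without Balb/c clone 54. With total-count scaling or with no filter 5 passed there, Plagl1 being the fifth in each. In wild-type tumors 4 passed with no filter, Peg3 being the added one, where 4873 of 20832 genes passed. Scaling by total counts moved the median of all genes to -0.24 and -0.17, and the share of calls that were higher from 48.6% to 36.5% in wild-type and from 50.5% to 37.3% in knockout tumors. The 4 comparisons share libraries, so their values are not independent of each other.

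**Figure D4:**
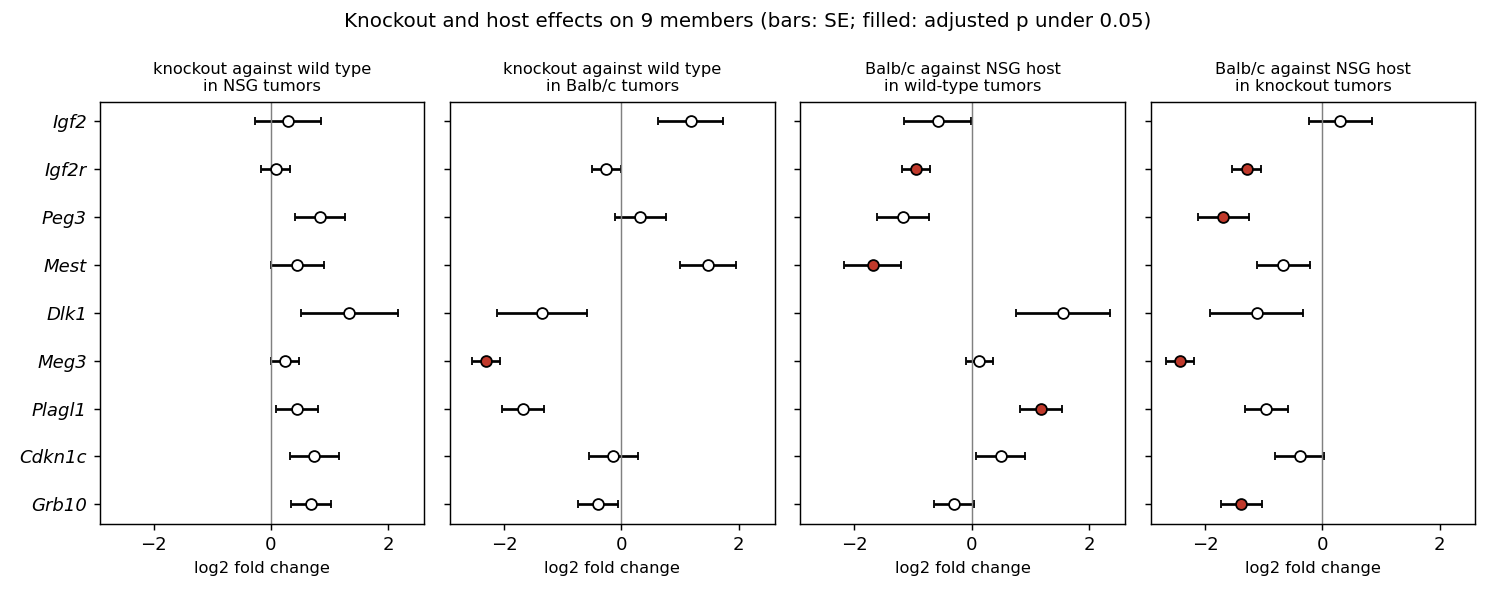
Log2 fold changes of the 9 genes other than H19 in 4 comparisons, with bars of 1 SE; filled points have an edgeR adjusted p under 0.05. Filled points are Meg3 for CD95 loss in Balb/c, at -2.31, 3 genes between hosts in wild-type tumors and 4 between hosts in knockout tumors, and there are none for CD95 loss in NSG.

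Split by the allele they are usually read from, the genes that fell between hosts in knockout tumors were 3 of 4 maternally expressed ones (Igf2r, Meg3 and Grb10; median -1.33) and 1 of 5 paternally expressed ones (Peg3; median -0.95). In wild-type tumors it was 1 of 4 (Igf2r; median -0.09) and 1 of 5 (Mest; median -0.58), with Plagl1 higher. Over all genes 31.1% and 31.5% passed, the split was not tested, and nothing is read from it.

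Markers of other cells are set beside these contrasts. Between hosts in knockout tumors 8 of 10 fibroblast markers fell and 8 of 8 macrophage markers rose, with sums of 4410 to 12400 against 30600 to 35000 CPM and 4670 to 11800 against 1860 to 2370 CPM. Also in knockout tumors 5 of 8 adipocyte and 5 of 6 proliferation markers fell, and 5 of 5 T cell and 2 of 4 B cell markers rose. In wild-type tumors 1 of 10 fibroblast markers fell, and the sums were 9360 to 13600 against 18300 to 26800 CPM. There 3 of 8 adipocyte, 3 of 8 endothelial and 4 of 6 proliferation markers fell, and 5 of 5 T cell, 4 of 4 B cell and 2 of 6 neutrophil markers rose. For CD95 loss in Balb/c tumors, the comparison in which Meg3 fell, edgeR called 0 markers of any list. At an unadjusted p under 0.05 there were 4 of 6 neutrophil, 8 of 8 endothelial, 8 of 8 macrophage, 2 of 8 adipocyte and 3 of 4 B cell markers, against 30.9% of all genes. By the same measure there were 1 of 10 fibroblast, 2 of 8 epithelial, 1 of 5 T cell, 1 of 6 proliferation and 0 of 10 skeletal muscle markers. The sums, wild type first, were 5750 to 7390 and 518 to 2500 CPM for neutrophil markers and 203 to 292 and 514 to 589 CPM for endothelial markers. Macrophage markers summed to 2440 to 2700 and 4670 to 11800 CPM, and B cell markers to 24.5 to 106 and 6.45 to 8.97 CPM. Fibroblast markers summed to 9360 to 13600 and 4410 to 12400 CPM, and epithelial markers to 758 to 1880 and 718 to 3890 CPM. The fibroblast and epithelial sums overlapped between genotypes, as did those of T cell, proliferation and skeletal muscle markers. Adipocyte markers summed to 89.8 to 140 and 377 to 408 CPM, most of it Fabp4 (34.3 and 81.4 against 198 and 263 CPM) and Lpl (48.2 and 51.3 against 207.5 and 108 CPM). Of the rest of that list, Adipoq, Plin1, Cidec and Lep stayed at or under 1.31 CPM in all 4 libraries. Retn read 2.97 and 3.67 against 0.317 and 1.75 CPM, and Cfd 3.23 and 1.66 against 0.952 and 2.115 CPM. Their part in the values of the 9 genes was not tested.

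Other imprinted genes were taken from a list of 43, of which 42 were found and 33 passed the filter. By edgeR 0 of 33 passed for CD95 loss in either host or for its difference between hosts. At an unadjusted p under 0.05 there were 8 in NSG, 9 in Balb/c and 11 for the difference, against 14% (NSG), 30.9% (Balb/c) and 22.5% (difference) of all genes. DESeq2 called 0, 5 and 4 of them, and 340, 2208 and 974 of all genes. Leaving out Balb/c clone 69 raised the edgeR counts in Balb/c and for the difference, in this list as over all genes. The median log2 fold change was 0.58 in NSG and -0.10 in Balb/c. Between hosts in wild-type tumors 4 of 33 rose and 2 fell, where 31.5% of all genes passed, and the median was -0.09 against -0.079. Peg10, a retrotransposon-derived placental gene, rose by 2.24 (SE 0.58, adjusted p = 0.0249), from 1.87 and 5.30 to 17.4 and 16.2 CPM. Nnat, which encodes the small membrane protein neuronatin, rose by 1.69 (SE 0.45, adjusted p = 0.027), from 18.1 and 16.7 to 57.5 and 55.2 CPM. Peg13 also rose, by 0.55, and Ppp1r9a and Gnas fell by 1.72 and 0.62. With the line as a block 2 passed, where 2073 of the 15310 genes did. Fewer passed than in the fit of all 8 libraries when any wild-type library was left out. Zdbf2, the remaining call, had 4 and 3 counts in NSG wild type and 14 and 26 in Balb/c wild type, so it passed the filter through the host where it was higher and nothing is read from its call.

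Between hosts in knockout tumors 9 of the 33 fell and 1 rose, with a median of -0.39 against 0.022 over all genes, of which 31.1% passed, so the count is near the background. Those that fell were Kcnq1ot1, Phlda2, Rtl1, Mirg, Zim1, Airn, Sgce, Ppp1r9a and Ndn, of which Kcnq1ot1, Rtl1, Sgce and Ppp1r9a fall outside the rule for naming and were named after their values were seen. Kcnq1ot1, the noncoding RNA that silences its domain on the paternal allele, read 267 and 351 CPM in NSG knockout and 67.7 and 118 CPM in Balb/c knockout, and fell by 1.74 (SE 0.29, adjusted p = 0.00401). Airn, which silences Igf2r on the paternal allele, fell by 2.08 (SE 0.31, adjusted p = 0.00271), from 17.0 and 16.0 to 2.96 and 4.89 CPM. Igf2r fell in the same comparison. Phlda2, a placental growth restrainer, with 23 and 30 counts in NSG and 2 and 9 in Balb/c knockout libraries, Zim1, with 46 and 22 against 11 and 6, and Nap1l5, called higher with 3 and 2 counts in NSG knockout, passed the filter through the host where they were higher, and nothing is read from their calls. Without NSG clone 54 the count of calls was 6. Kcnq1ot1 and Airn overlap genes on the other strand, so that their counts are uncertain.

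The IGF axis, of which 15 of 17 genes passed the filter, holds the receptors, substrates and binding proteins around Igf2 and Igf2r. Between hosts 1 rose and 5 fell in wild-type tumors (median -0.63), and 1 rose and 6 fell in knockout tumors (median -1.46). Over all genes 31.5% and 31.1% passed, and the medians were -0.079 and 0.022. Irs2, a docking protein of the insulin and IGF1 receptors, rose in both, by 0.86 (SE 0.17, adjusted p = 0.0102) and 1.49 (SE 0.17, adjusted p = 0.00103). Igfbp4, which binds IGFs, fell in both, from 640 and 585 to 184 and 147 CPM in wild-type tumors (log2 fold change -1.89, SE 0.36, adjusted p = 0.00949) and from 494 and 575 to 125 and 54.6 CPM in knockout tumors (-2.57, SE 0.37, adjusted p = 0.00239). Pappa, the protease that cleaves IGFBP4, fell by 2.57 and fell by 3.17. Igfbp7 fell by 1.65 and fell by 1.48. Igfbp3 (-2.37) and Stc1 (-2.78) fell in wild-type tumors, and Insr (-0.92), Irs1 (-1.71) and Igfbp5 (-2.57) in knockout tumors, with Insr named after its value was seen. For CD95 loss edgeR called 0 of 15 in each host and for the difference; at an unadjusted p under 0.05 there were 4 in NSG, 3 in Balb/c and 3 for the difference, against 14%, 30.9% and 22.5% of all genes, and DESeq2 called 2, 3 and 1. Over all genes DESeq2 called 340, 2208 and 974. The edgeR counts in Balb/c and for the difference rose when Balb/c clone 69 was left out, here as over all genes. In wild-type tumors 5 passed with the line as a block, where 2073 of the 15310 genes did. Leaving out any wild-type library gave fewer calls than the fit of all 8 libraries. Beside these values, 1 of 10 fibroblast markers fell between hosts in wild-type tumors and 8 of 10 in knockout tumors, and their part was not tested.

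RNA regulators of fetal growth, of which 6 of 7 passed the filter, include binding proteins of Igf2 and H19 RNA. Igf2bp2, Hmga1 and Hmga2 fell between hosts in both genotypes. Hmga2, a chromatin protein of embryonic and tumor cells, read 148 and 121 CPM in NSG wild type, 83.4 and 180 in NSG knockout, 29.0 and 33.0 in Balb/c wild type and 3.76 and 6.71 in Balb/c knockout. It fell by 2.12 in wild-type tumors (SE 0.38, adjusted p = 0.00787) and fell by 4.66 in knockout tumors (SE 0.44, adjusted p = 0.000514). Igf2bp2 fell by 1.39 and fell by 1.96. Igf2bp1, also called lower in both, had 35 to 76 counts in the NSG and 5 to 14 in the Balb/c libraries, so it passed the filter through the host where it was higher and nothing is read from its calls. Lin28a rose in wild-type tumors, by 2.02 (SE 0.63, adjusted p = 0.0434). The medians were -1.40 and -1.54, against -0.079 and 0.022 over all genes, of which 31.5% and 31.1% passed. For CD95 loss edgeR called 0 of 6 in either host and for the difference; unadjusted p-values under 0.05 numbered 2 in NSG, 4 in Balb/c and 2 for the difference, against 14%, 30.9% and 22.5% of all genes, and DESeq2 called 1, 3 and 1. DESeq2 called 340, 2208 and 974 of all genes. A fit that left out Balb/c clone 69 raised the edgeR counts in Balb/c and for the difference, here as over all genes. In wild-type tumors 2 passed with the line as a block, where 2073 of the 15310 genes did. Any wild-type library left out gave fewer calls than the fit of all 8 libraries.

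Factors that keep or erase imprints, all 14 of which passed the filter, were mixed between hosts in wild-type tumors, where 4 rose and 3 fell (median -0.01) and 31.5% of all genes passed. In knockout tumors 1 rose and 2 fell (median -0.07), where 31.1% passed. Uhrf1, which brings DNMT1 to newly copied DNA, fell by 1.40 (SE 0.28, adjusted p = 0.0102) and in knockout tumors by 1.48 (SE 0.28, adjusted p = 0.00642). Dnmt1, the maintenance methyltransferase, fell by 0.63 (SE 0.18, adjusted p = 0.0321), a value named after it was seen, and fell by 0.94 (SE 0.18, adjusted p = 0.00699). Proliferation markers, with which both genes are known to move, fell in 4 of 6 cases in wild-type tumors, and in knockout tumors 5 fell and 1 rose. The part of proliferation in the values of Uhrf1 and Dnmt1 was not tested. Tet2 (1.40), Smchd1 (1.39) and Tet3 (0.86) rose and Trim28 (-0.89) fell in wild-type tumors, and Dnmt3a (0.59) rose in knockout tumors. The remaining gene of the 4, Ctcfl, passed the filter through the Balb/c libraries alone, with 10 and 45 counts in Balb/c wild type and 1 in each NSG wild-type library, and nothing is read from its call. In wild-type tumors 4 passed with the line as a block, where 2073 of the 15310 genes did. There were fewer calls than in the fit of all 8 libraries when any wild-type library was left out. In knockout tumors 1 passed in a fit of only those 4 libraries, where 2450 of 14603 genes did, and more passed when Balb/c clone 54 was left out. For CD95 loss edgeR called 0 of 14 in each host and for the difference; unadjusted p-values under 0.05 numbered 0, 5 and 4, against 14%, 30.9% and 22.5% of all genes, and DESeq2 called 0, 5 and 0. Among all genes DESeq2 called 340, 2208 and 974. With Balb/c clone 69 left out, the edgeR counts in Balb/c and for the difference rose in this list and over all genes.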

How the data were processed

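RNA was measured by sequencing in 8 libraries of 4T1 tumors. The values deposited by the authors are raw counts per Ensembl gene, 1 library per file, with no normalization visible. The submitters' processing notes name cutadapt 1.13, STAR, HTSeq 0.6.1p1 and DESeq2 and the builds mm10 and hg19, with no role or order; annotation, strand setting and pooling are not given in the sources used here. Per the labels' protocols, total RNA was isolated with a miRNeasy kit and treated with DNase.

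Symbols were matched for 24942 of 25006 identifiers; positions and exon lengths came from GENCODE M21. Tests used edgeR 4.0.16 under R 4.3.3 (filterByExpr, TMM, glmQLFit and glmQLFTest) in one model of 4 group means over all 8 libraries, which left 15310 genes and 4 residual degrees of freedom. P-values were adjusted over all genes by Benjamini and Hochberg. The code was also run on simulated counts, and no statement here rests on that run. Count floors cover counting error only, since no molecular identifiers are stated. DESeq2 1.42.0, RLE size factors, total-count scaling, no filter, only the compared libraries, each library left out and the cell line as a block were alternatives.

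The genes and lists were chosen with earlier results of these data known, so their p-values are not independent evidence. All 10 genes are named. In the lists, named are genes past the threshold without overlap of groups, at most 6 per list and comparison by size of change, plus the 5 nearest profiles to H19, Igf2 and Dlk1. Each line was grown in both hosts, per the titles, so replicate numbers pair samples across hosts. The correlation of deviations between hosts was 0.081 for the parental and vCas9 lines and -0.38 for clones 54 and 69.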

Additional observations from a re-analysis of the deposited data

Results flagged for a closer look

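A gene among the 10 was flagged when its groups did not overlap and moved opposite ways, between hosts or between genotypes. A called difference of the knockout effect was also a ground, and none was called. The share of all genes that meet this rule was not counted, so nothing is read from a flag. For Dlk1, both knockout libraries lay above both wild-type libraries in NSG tumors and below both in Balb/c tumors, and the difference of the log2 fold changes was -2.68. The same value, -2.68, is the difference of its host effects, since both Balb/c libraries were higher than both NSG libraries in wild-type tumors and lower in knockout tumors. By edgeR the difference had an adjusted p of 0.214, and Dlk1 had 2 to 23 counts in a library. With 1 library left out the difference ranged from -4.35 to -1.86.

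For Plagl1, both Balb/c libraries lay above both NSG libraries in wild-type tumors and below both in knockout tumors, and the difference of the host effects was -2.13. By edgeR it had an adjusted p of 0.0995, with 0.0138 when no filter on low counts was used and 0.256 with the line as a block. DESeq2 gave -2.21 with an adjusted p of 0.00344.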

How the results depend on the processing

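Of 530 values of the 10 genes under an alternative, 469 kept their direction and side of the threshold, 22 no longer passed and 18 newly passed. A further 5 values of H19 moved by more than the SD, and 16 values changed sign. H19 had no test, so its values counted as kept when they kept their direction and moved by less than the SD. The 530 include the crosswise pairing of clones described below. Counts of genes past the threshold for CD95 loss in NSG (2) were 133 with no filter, 340 by DESeq2, 1 in a fit of only those libraries and 0 without any 1 library. In Balb/c (27) they were 94 with RLE size factors, 1774 with no filter, 2208 by DESeq2, 0 in a fit of only those libraries, and 0 to 3886 with a library left out; of the 9 genes tested (1), 2, 3 and 0 passed with no filter, by DESeq2 and in only those libraries, and 0 to 3 with a library left out. Between hosts in wild-type tumors (4825) the count was 6838 in a fit of only those libraries, 2073 with the line as a replicate block, where 0 of 9 passed, and 858 to 1482, with 0 to 1 of 9, with a library left out. In knockout tumors (4757) it was 2450 in a fit of only those libraries, 2878 with the block, and 2461 to 4640 with a library left out, where 2 to 4 of 9 passed. For the difference between hosts (0) it was 674 with no filter and 974 by DESeq2, with 2 of 9 in both, and 0 to 2370, with 0 to 2 of 9, with a library left out. The block by line changed no other call of the 9 genes. Pairing the clones crosswise, against their titles and chosen after seeing the data and their negative correlation, gave 307 genes and 2 of 9 for that difference and 5436 genes and 5 of 9 between hosts in knockout tumors. The cause of these shifts was not tested, and the smaller fits also held fewer libraries.

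Sign changes were as follows. Meg3 between hosts in wild-type tumors was -0.036 with total-count scaling, and -0.17 to 0.46 with a library left out. Other ranges with a library left out, for CD95 loss in NSG, were -0.58 to 0.83 for Igf2, -0.15 to 0.35 for Igf2r, -0.35 to 0.95 for Mest, -0.0472 to 0.58 for Meg3, -0.0813 to 0.92 for Plagl1 and -0.66 to 0.11 for Mirg. For CD95 loss in Balb/c they were -0.41 to 0.81 for Peg3 and -0.54 to 0.28 for Cdkn1c. Between hosts in wild-type tumors they were -0.65 to 0.12 for Grb10 and -0.55 to 0.18 for Mirg. In knockout tumors they were -0.24 to 1.18 for Igf2, -1.17 to 0.13 for Mest and -0.75 to 0.11 for Cdkn1c. Where a library left out leaves 1 in its group, that library is assumed to vary like the others. Depth limits Igf2 and Dlk1, at 2 to 37 counts a library.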
